A study of Mus musculus with 7 samples.

Results

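Axon guidance genes encode the ligands and receptors that attract or repel growing axons, and most of them also act outside the nervous system, where they set cell adhesion, cell shape and cell spacing. Slit proteins are secreted and signal through Robo receptors. Netrins signal through Dcc and the Unc5 receptors, semaphorins through plexins with or without neuropilins, and ephrins through Eph receptor tyrosine kinases, with ephrins able to signal back into their own cell. Robo and Slit genes are known to be expressed in the mammalian ovary, and ephrins and Eph receptors in many epithelia.

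The genes described here were chosen by symbol: Robo, Slit, semaphorin, plexin, ephrin, Eph, netrin and Unc5 genes, with Nrp1, Nrp2 and Dcc. They came to 67 of the 18951 symbols of the deposited gene table, 35 ligands and 32 receptors. The family was picked because Robo1 and Sema6a were known to be higher in Nlrp2-null oocytes, so the values, differences and intervals of these 2 genes are given as a description, without a test, and support nothing about the family.

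RNA came from denuded oocytes of C57BL/6 females of 4 weeks, namely 4 pools from Nlrp2-null females and 3 pools from wild-type (WT) females. NLRP2 is a maternal effect protein stored in the egg, and the study compared the ovulated oocyte transcriptome with and without it. Per the labels, complexes of oocyte and cumulus cells were taken from the oviduct, cumulus cells were removed with hyaluronidase, and some 150 oocytes of 3 to 4 mice with the same genotype went into a pool. The labels do not describe the null allele. Pools were counted as separate collections of animals, and each value is an average over many oocytes, so that fewer cells of a type and less RNA per cell cannot be told apart.

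Between 71795562 and 79476532 reads per null pool and between 71073973 and 96330083 reads per WT pool stood behind the table. Its values are normalized counts, that is reads divided by a size factor per pool. Nlrp2 itself stood at 107, 8.19, 1.96 and 63.8 normalized counts in null pools 1 to 4, against 15527, 20130 and 16792 in WT pools 1 to 3, as labelled. All 16 oocyte markers were present, with a summed normalized count of 1002500 to 1119340 in null pools and 952458 to 1017310 in WT pools. Markers of cumulus and granulosa cells, the other cells of the complex, were also present. The mean log2 value of 29 such markers was 8.86, 9.06, 9.47 and 10.1 in null pools 1 to 4, against 9.42, 8.41 and 8.71 in WT pools 1 to 3. Null 3 and null 4 had the highest marker means, and WT 1 lay above null 1 and null 2. The summed level of the 31 markers in the table was 128236 to 144109 in null pools and 125484 to 139181 in WT pools. Amh, a granulosa cell hormone gene, was at 0 in 2 null pools and all 3 WT pools. Of these 29 markers 23 had positive log2 fold changes of null over WT (median 0.33). Of 8 oviduct epithelium markers 7 were tested, with a mean log2 value of 6.42, 7.17, 6.47 and 7.73 in null pools 1 to 4, against 6.78, 6.02 and 5.63 in WT pools 1 to 3. Their log2 fold changes were positive in 6 of 7 (median 0.79). The summed level of the 8 was 29236 to 36532 in null pools and 20741 to 30562 in WT pools. The 8 include Cdh1, which oocytes also express. Foxj1, which defines ciliated cells, was at 0 in all 4 null pools and in 2 of the 3 WT pools. Pax8 was at 0 in null 1, null 3, null 4 and WT 3. Muc1 went the other way, at 0 in WT 2 and WT 3 and above 0 in all 4 null pools. Null 4 had the highest mean of both marker lists, and the part of either cell type in the results was not tested beyond the values adjusted for the cumulus marker mean. The labels also give each pool a number, here called its library number. Null 3, null 4 and WT 3 lie in a higher range than the other 4 pools, which is treated here as a possible batch.

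The promoter windows of the 3 Robo genes are shown because the null and WT pools did not overlap in any of them (values below). The groups also did not overlap in 9.91% of all genes tested. Robo2 and Robo3 did not pass the test between genotypes, and Robo1 is 1 of the 2 genes for which the family was picked. They are RefSeq windows of 300 bases on GRCm38.p6, from 250 bases before to 50 after the start of transcription. Capitals mark the E-box CANNTG, which reads the same on both strands and was searched with overlapping matches allowed. Robo1 lies on chr16:72662899-72663198, plus strand. Robo2 lies on chr16:74411776-74412075, minus strand, the nearest of its 3 RefSeq windows to the gene start in GENCODE. Robo3 lies on chr9:37433126-37433425, minus strand.
Robo1: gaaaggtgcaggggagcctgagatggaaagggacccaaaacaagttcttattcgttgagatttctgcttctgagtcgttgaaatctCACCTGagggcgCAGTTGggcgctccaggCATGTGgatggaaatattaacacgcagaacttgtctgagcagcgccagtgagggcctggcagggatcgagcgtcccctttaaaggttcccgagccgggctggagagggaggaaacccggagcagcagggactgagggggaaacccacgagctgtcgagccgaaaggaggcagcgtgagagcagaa
Robo2: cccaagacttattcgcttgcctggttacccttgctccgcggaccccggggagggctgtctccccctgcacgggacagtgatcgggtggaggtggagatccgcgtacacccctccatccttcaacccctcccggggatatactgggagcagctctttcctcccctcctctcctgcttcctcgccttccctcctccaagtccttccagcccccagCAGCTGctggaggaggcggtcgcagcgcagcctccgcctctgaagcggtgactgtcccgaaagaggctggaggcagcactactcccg
Robo3: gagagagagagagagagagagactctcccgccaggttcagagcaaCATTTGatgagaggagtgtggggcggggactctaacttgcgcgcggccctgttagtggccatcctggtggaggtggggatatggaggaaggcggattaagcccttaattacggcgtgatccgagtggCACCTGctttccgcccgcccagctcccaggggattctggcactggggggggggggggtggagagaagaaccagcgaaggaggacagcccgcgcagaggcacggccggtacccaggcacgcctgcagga
The windows held 3 E-boxes in Robo1, 1 in Robo2 and 2 in Robo3, and 57.0%, 65.0% and 63.3% of their bases were G or C. Of all 32851 RefSeq windows of this length 72.3% hold an E-box, against 49.3% of the 73 windows found for 57 of the 67 genes. The GC box CCGCCC, on either strand, was in 71.2% of the member windows and 35.7% of all windows, and occurred 3 times in Robo3 and not in the windows of Robo1 and Robo2. The TATA box TATAAA, on either strand, was in 2.74% of the member windows, against 13.6% of all windows, and in none of the 3 shown. Median GC content was 64.3% in the member windows and 52.7% in all windows. The Robo1 window lies 354843 bases inside the gene as GENCODE draws it, and gene counts do not show which start the oocyte uses.

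The oocyte pools held high levels of a limited part of this family, and which cells this RNA came from was not tested. Per kb of exon, 24 of the 67 genes lay above the median of all tested genes in WT pools, which was 141 normalized counts per kb. The median was 59.5 for the 62 members that averaged 10 or more normalized counts over the pools. The 5 others, Efnb3, Sema6b, Sema6c, Ephb3 and Ntn5, averaged less and were not tested. A gene that is low in one genotype can pass this limit through the other genotype alone, as Slit1, Sema3g, Ntn3 and Epha2 did through the null pools and Sema4f through the WT pools. Each of these 5 averaged under 10 in the other genotype.

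**Figure D1:**
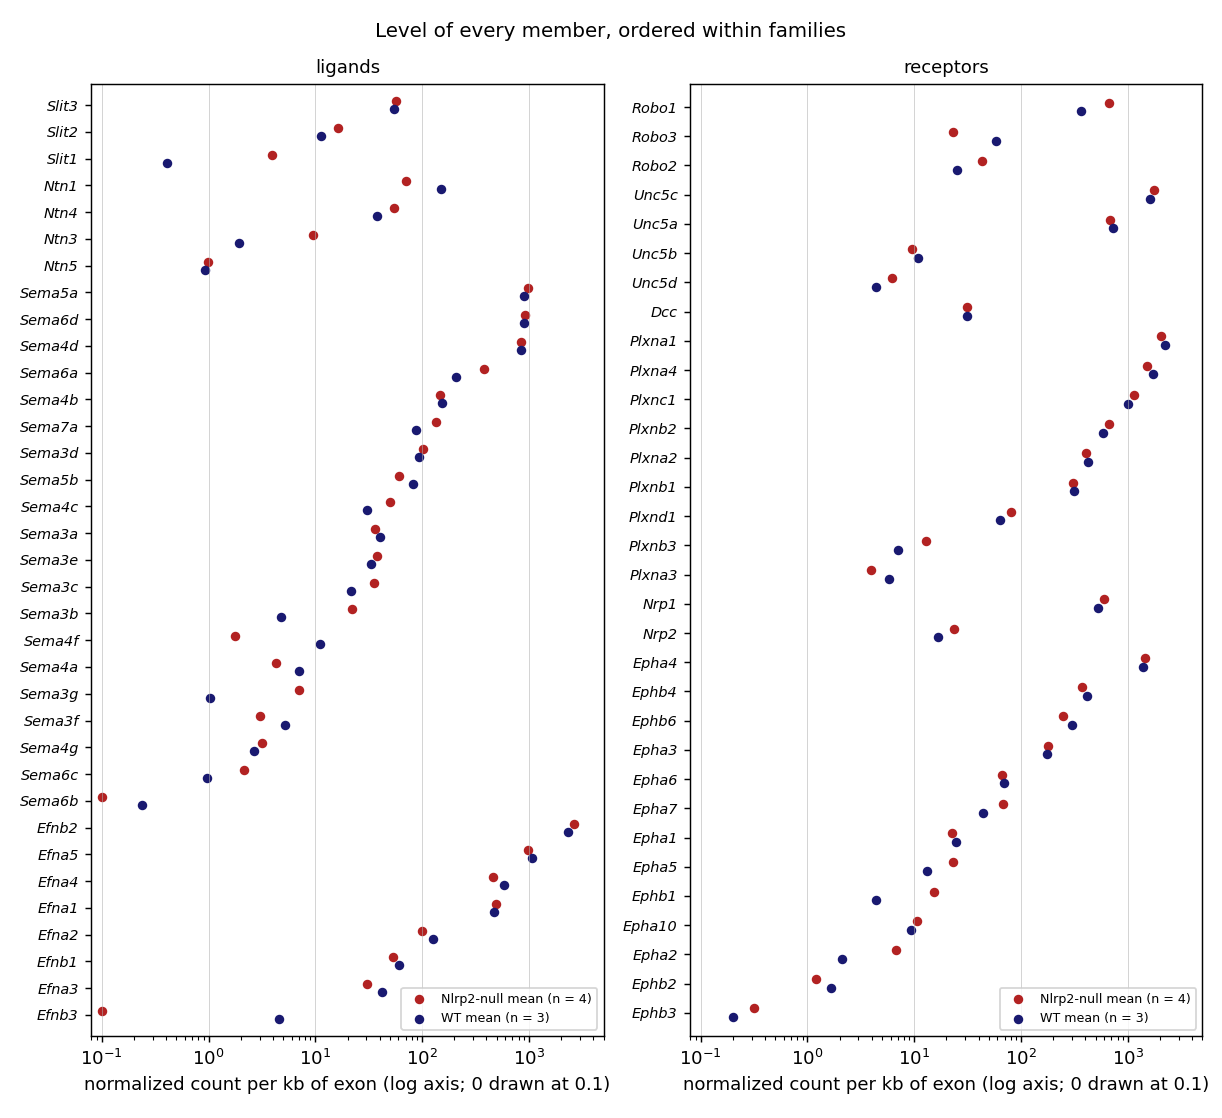
Level of every member in normalized counts per kb of exon (horizontal log axis), with ligands on the left and receptors on the right, grouped by family; red points are means of 4 Nlrp2-null pools and dark points means of 3 WT pools. Levels ran from 2654 for Efnb2 to 0.317 for Ephb3 among null means above 0, and most paired points lie close together, with Robo1 and Sema6a apart among the more abundant genes.

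The ligand with the highest level was Efnb2, which encodes ephrin-B2, a membrane-bound ligand that can also signal backwards. It stood at 2654 ± 199 normalized counts per kb in null pools and 2322 ± 178 in WT pools (SD, n = 4 and 3). The next ligands were Efna5, a lipid-anchored ephrin, at 989 ± 51.7 in null pools and 1078 ± 115 in WT pools, and Sema5a, a transmembrane semaphorin, at 980 ± 79.3 and 900 ± 27.8 in null and WT pools. Sema6d, a class 6 semaphorin that binds plexin-A1, stood at 913 ± 117 per kb in null pools and 892 ± 74.0 in WT pools. Sema4d, the ligand of plexin-B1, stood at 837 ± 133 in null pools and 842 ± 75.2 in WT pools. Efnb2 lay clear of the rest, whereas Efna5, Sema5a, Sema6d and Sema4d had spreads that met those of their neighbours in the order in null pools.

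Among receptors the order began with Plxna1, at 2048 ± 88.5 per kb in null pools and 2251 ± 215 in WT pools. Plexin-A1 is a signalling partner of neuropilins and a receptor of class 6 semaphorins. Unc5c, a repulsive netrin receptor, stood at 1747 ± 85.3 per kb in null pools and 1610 ± 149 in WT pools. Plxna4, another plexin-A gene, stood at 1497 ± 69.2 in null pools and 1729 ± 93.1 in WT pools. Epha4, an Eph receptor that binds ephrins of both classes, stood at 1452 ± 146 in null pools and 1390 ± 163 in WT pools. The spreads of Unc5c and Plxna4 met in WT pools, and those of Plxna4 and Epha4 in null pools, so that their order was not fixed. Below them came Plxnc1, the receptor of semaphorin 7A, at 1141 ± 94.5 in null pools and 1010 ± 93.0 in WT pools. Unc5a followed at 679 ± 115 in null pools and 719 ± 50.8 in WT pools, and Plxnb2, a receptor of class 4 semaphorins, at 669 ± 71.3 and 582 ± 111 in null and WT pools. Robo1, at 669 ± 47.3 per kb in null pools, came to a level near those of Unc5a and Plxnb2, against 366 ± 15.6 in WT pools.

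Some ligands were abundant in the pools together with a receptor known to bind them, as Efnb2 and Efna5 were with Epha4 and Sema6d was with Plxna1 (values above). In other systems one side was low. Of the netrin receptors Unc5c and Unc5a were abundant, whereas Dcc was at 31.5 per kb in both genotypes and the netrin Ntn1 at 70.6 in null and 149 in WT pools. For Slit and Robo the receptor was the abundant side: the 3 Slit genes together came to 77.1 per kb in null pools and 66.2 in WT pools, against 735 and 450 for the 3 Robo genes. Class 3 semaphorins, the secreted ligands that bind neuropilins, were low, with Sema3d the highest of them at 102 per kb in null and 94.3 in WT pools, while Nrp1 was at 598 and 521.

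In limma over 15071 genes, 10 genes (0.0664%) had an adjusted p under 0.05 between genotypes, 8 of them higher (0.0531%) and 2 lower (0.0133%) in null pools. Of the 62 tested members 2 were among them, Robo1 and Sema6a, the pair known when the family was picked, and nothing is read from that count. With null 3 and null 4 left out, limma called 0 of all 15071 genes (1080 at an unadjusted p under 0.05) and 0 of the 62 members (5 at that level). Nlrp2 itself was not called in that fit (log2 fold change -9.11, limma adjusted p = 0.133), so its 0 calls say little about any gene. In the fit of all pools none of the other 60 members passed. Of these 60, 9 had an unadjusted p under 0.05, 5 of them higher and 4 lower. That is 15.0% beside 10.2% of all genes tested (5.28% higher and 4.93% lower). Epha2 and Sema4f, which reached the limit of 10 through one genotype, are among these 9. edgeR on the recovered reads also called 0 of those 60 (7 of all genes, 0.0464%), and DESeq2 called 1, Ntn1 (188 of all genes, 1.25%). The median log2 fold change of the 62 was 0.07, against 0.01 over all genes tested, with 36 positive and 26 negative. The groups did not overlap in 10 of the 62 (16.1%), 5 above and 5 below, against 9.91% of all genes tested (4.74% above and 5.16% below). Without Robo1 and Sema6a it was 8 of the 60 (13.3%), Sema4f among them.

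**Figure D2:**
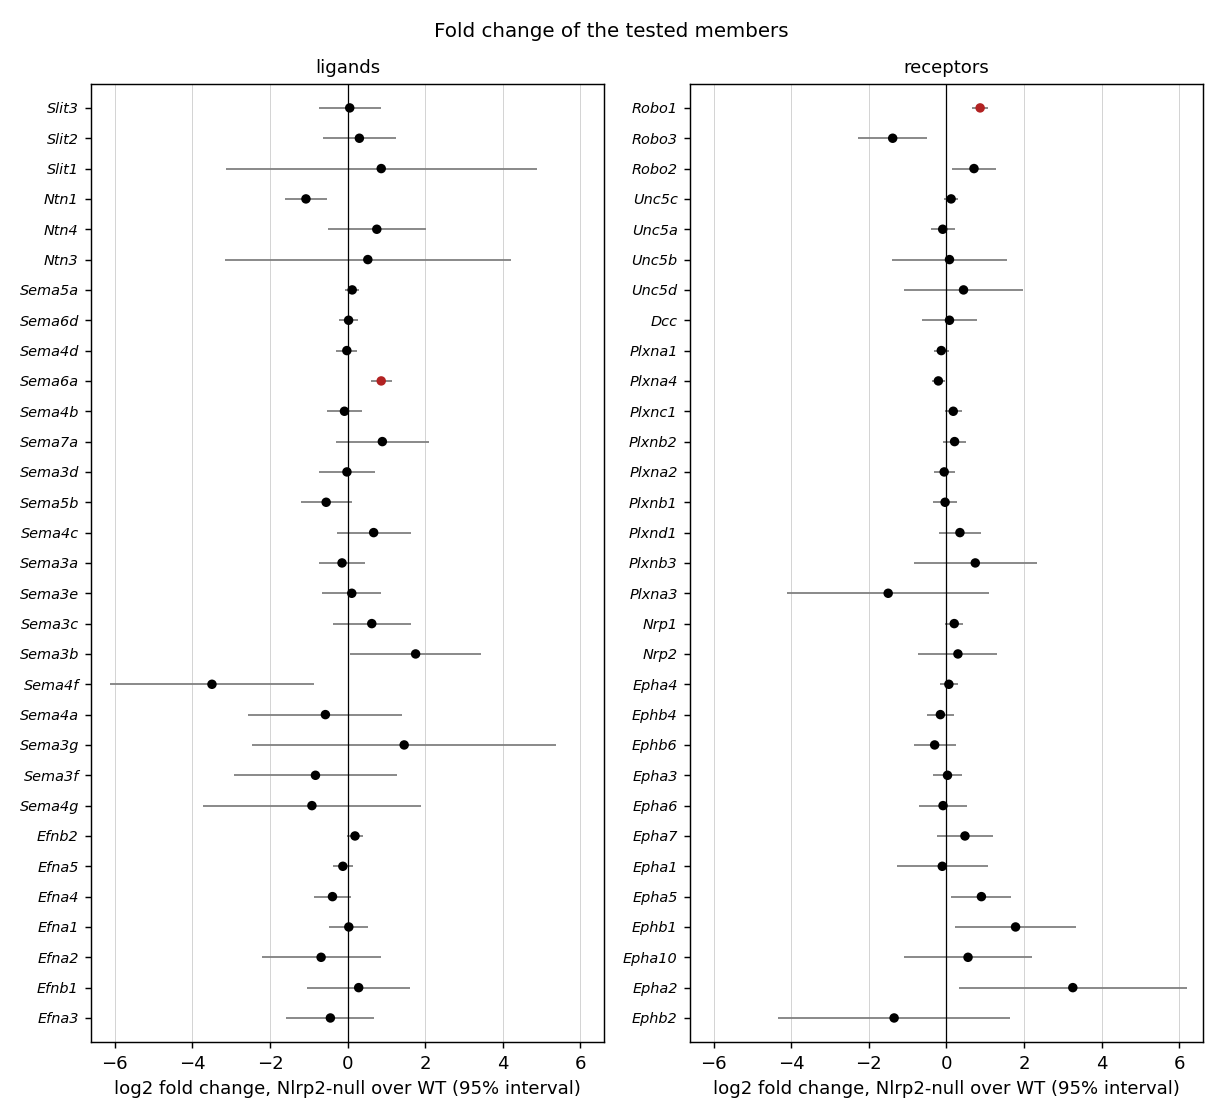
Log2 fold change of the 62 tested members, Nlrp2-null over WT (horizontal axis), with 95% intervals from limma; red marks Robo1 and Sema6a, the 2 genes for which the family was picked. The red points lie at 0.87 each, the abundant plexins and ephrins lie near 0, and the intervals of low genes such as Slit1 and Sema3g are several log2 units wide.

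Robo1, the receptor through which Slit proteins repel axons, lies on chromosome 16 (72308306 to 73046095, plus strand, GRCm38). It held 11554, 10169, 11835 and 10624 normalized counts in null pools 1 to 4, against 6334, 5861 and 5924 in WT pools 1 to 3. The groups were far apart, with the lowest null pool well above the highest WT pool. The fitted fold was 1.83 (95% interval 1.58 to 2.11), a log2 fold change of 0.87 (SE 0.0975). Split by library number, the log2 difference was 0.83 among the lower numbers (2 null and 2 WT pools) and 0.92 among the higher (2 null pools and 1 WT pool). Adjusted for the cumulus marker mean it was 0.86, and without null 3 and null 4 it was 0.84. No annotated gene overlaps an exon of Robo1.

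Robo2, another Slit receptor, on the same chromosome as Robo1 (73891839 to 74411825, minus strand), was far less abundant. It held 551, 550, 847 and 951 normalized counts in null pools and 416, 461 and 412 in WT pools. The groups did not overlap, and the 2 higher values were those of null 3 and null 4. The log2 fold change of null over WT was 0.71 (SE 0.263, limma adjusted p = 0.377), which did not pass. Null 3 and null 4 also had the highest cumulus marker means: adjusted for that mean, the log2 fold change was 0.50, and without the 2 pools it was 0.36.

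Robo3, a divergent member known in the mouse for axon crossing at the midline, lies on chromosome 9 (37415669 to 37433246, minus strand) and had lower values in null pools. It held 159, 246, 127 and 94.2 normalized counts in null pools, against 254, 449 and 506 in WT pools. The null pools lay below the WT pools, null 2 by a narrow margin to WT 1. Its log2 fold change of null over WT was -1.39 (SE 0.416, limma adjusted p = 0.274), and -0.92 when adjusted for the cumulus marker mean. Split by library number, the log2 difference was -0.77 among the lower numbers and -2.20 among the higher, where WT 3 is the only WT pool. Without null 3 and null 4 the log2 fold change was -0.96. Robo1 made up 94.2%, 92.7%, 92.4% and 91.0% of the normalized counts of the 3 Robo genes in null pools 1 to 4, and 90.4%, 86.6% and 86.6% in WT pools 1 to 3.

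The Slit ligands gave no such separation. Slit2 held 392, 333, 150 and 790 normalized counts in null pools and 237, 337 and 291 in WT pools, so the null pools lay on both sides of the WT pools (fold 1.24, 95% interval 0.647 to 2.36). Slit3 held 469, 415, 193 and 301 in null pools and 221, 292 and 478 in WT pools, with full overlap (fold 1.04, 95% interval 0.598 to 1.81). Slit1 was at 0, 12.3, 80.4 and 0 in null pools and at 2.11, 0.950 and 4.12 in WT pools. A read count of 0 in a pool allows up to 3 reads, counting error only, and the interval of the Slit1 fold, 0.113 to 29.4, is too wide to place it. The limma adjusted p was 0.856 for Slit2, 0.973 for Slit3 and 0.909 for Slit1.

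**Figure D3:**
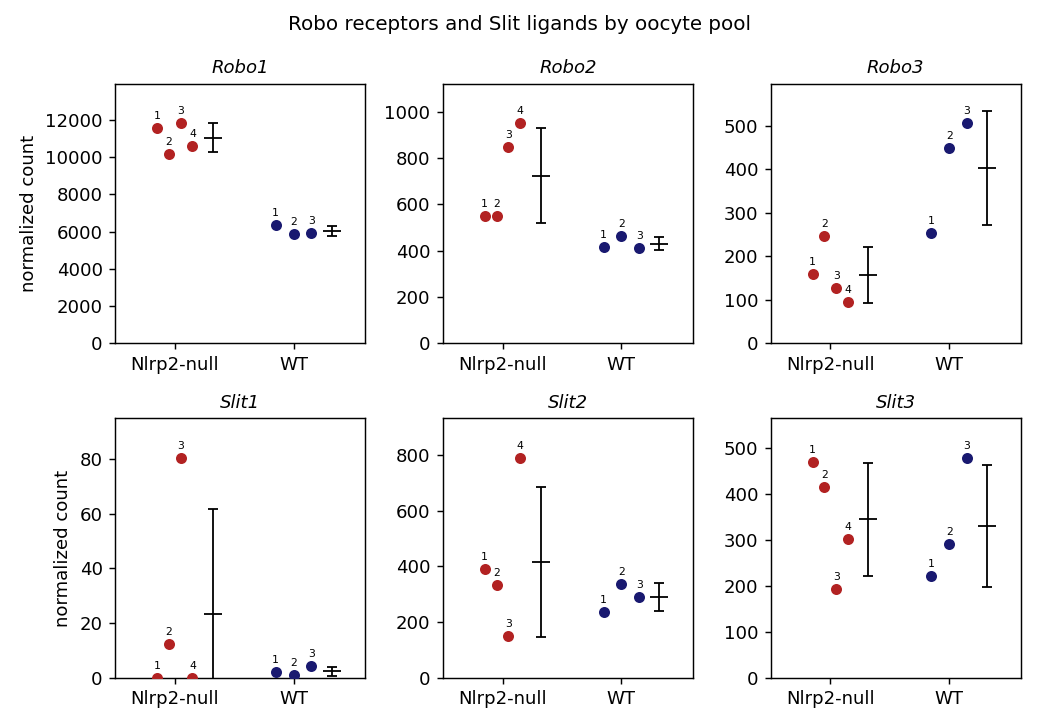
Normalized counts (vertical axes, linear from 0) of the 3 Robo receptor genes and the 3 Slit ligand genes in each pool, Nlrp2-null left and WT right; numbers are pool numbers and bars are the mean with its SD (n = 4 and 3). Robo1 and Robo2 points of the null pools lie above, and those of Robo3 below, all WT points, whereas the Slit genes overlap.

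Sema6a encodes a transmembrane semaphorin that binds plexin-A2 and plexin-A4 and can itself act as a receptor. It lies on chromosome 18 (47235598 to 47368870, minus strand) and held 3368, 3013.8, 3246 and 3584 normalized counts in null pools, against 1869, 1845 and 1707 in WT pools. Every null pool lay above every WT pool. The fitted fold was 1.83 (95% interval 1.51 to 2.21), a log2 fold change of 0.87 (SE 0.130). The log2 difference was 0.78 among the lower and 1.00 among the higher library numbers, 0.82 after adjustment for the cumulus marker mean and 0.82 without null 3 and null 4. Per pool, Robo1 had 3.43, 3.37, 3.65 and 2.96 times the normalized count of Sema6a in null pools and 3.39, 3.18 and 3.47 times in WT pools, a ratio of the 2 counts that is not corrected for length.

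Neither plexin that binds Sema6a passed the test. Plxna4 held 21256, 22415, 20215 and 20538 normalized counts in null pools and 23144, 25757 and 24237 in WT pools, so all null pools lay below all WT pools by a small margin. Its fold was 0.866 (95% interval 0.768 to 0.977, limma adjusted p = 0.407), which did not pass. Plxna2 averaged 6926 ± 946 in null pools and 7203 ± 1025 in WT pools (SD, n = 4 and 3). Plxna1 had a fold of 0.912 (95% interval 0.800 to 1.04). Plxnc1 (1.13, 0.969 to 1.32) and Plxnb2 (1.16, 0.948 to 1.41) had intervals that included 1 too. None of the 9 plexins passed, and their median log2 fold change was -0.03.

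Of the other semaphorins none passed. The abundant Sema5a (fold 1.09, 95% interval 0.954 to 1.24), Sema6d (1.02, 0.863 to 1.20) and Sema4d (0.988, 0.820 to 1.19) had intervals that included 1. Sema3b, a secreted class 3 semaphorin, held 23.8, 64.5, 116 and 216 normalized counts in null pools, against 20.0, 23.8 and 24.7 in WT pools. Null 1 lay among the WT pools and null 4 was highest. The log2 fold change of null over WT was 1.75 (SE 0.793, limma adjusted p = 0.473), and 1.04 when adjusted for the cumulus marker mean. Sema4f, a class 4 semaphorin, was low in both groups, at 2.17, 28.7, 6.87 and 0 in null pools and 52.7, 54.2 and 67.5 in WT pools. The groups did not overlap, and the log2 fold change of null over WT was -3.49 (SE 1.24, limma adjusted p = 0.361). It was -2.70 without null 4, the pool at 0, and -2.01 with a pseudocount of 10 in place of 1, and Sema4f reached the limit of 10 through the WT pools alone. Over the 18 tested semaphorins 9 fold changes were positive and 9 negative.

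Ntn1, the founding secreted netrin, had the smallest p among the other 60 tested members. It lies on chromosome 11 (68209364 to 68400823, minus strand) and held 470, 500, 314 and 488 normalized counts in null pools, against 705, 1009 and 1083 in WT pools. The null pools lay below all WT pools, with null 3 lowest. Its fold was 0.476 (95% interval 0.326 to 0.695), with a limma adjusted p of 0.160 and an edgeR adjusted p of 0.172, neither a call, and a DESeq2 adjusted p of 0.0111. The log2 difference was -0.80 among the lower library numbers and -1.47 among the higher, and -0.95 after adjustment for the cumulus marker mean. The netrin receptors Unc5c (fold 1.09, 95% interval 0.960 to 1.23) and Unc5a (0.936, 0.757 to 1.16) had intervals that included 1, and Dcc averaged 415 ± 97.0 in null pools and 414 ± 207 in WT pools.

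Among ephrins and Eph receptors no gene passed. Efnb2 held 17397, 20204, 17886 and 17287 normalized counts in null pools and 14952, 15515 and 17287 in WT pools. The lowest null pool and WT 3 differed by less than 1 normalized count, so the groups barely parted (fold 1.14, 95% interval 0.999 to 1.31, limma adjusted p = 0.494). Efna5 had a fold of 0.920 (0.773 to 1.09) and Epha4 of 1.04 (0.890 to 1.23). Epha5, an Eph receptor for the lipid-anchored ephrins, held 348, 368, 358 and 472 in null pools and 121, 331 and 214 in WT pools. Null 4 lay highest and WT 2 came close to the null pools (log2 fold change 0.90 with SE 0.365; limma adjusted p = 0.421). Ephb1, a receptor for ephrin-Bs, was at 46.6, 183, 130 and 68.0 in null pools and 11.6, 47.5 and 32.9 in WT pools, with null 1 just under WT 2 (log2 fold change 1.78 with SE 0.736; limma adjusted p = 0.432). Epha2 was at 20.6, 51.2, 19.6 and 33.5 in null pools, against 0, 0 and 29.6 in WT pools, and its log2 difference was 5.07 in the lower and -0.20 in the higher range of library numbers. Its log2 fold change of null over WT was 3.26, and 1.32 with a pseudocount of 10 in place of 1. Efnb3 was at 0 in every null pool, against 23.2, 20.0 and 0 in WT pools.

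**Figure D4:**
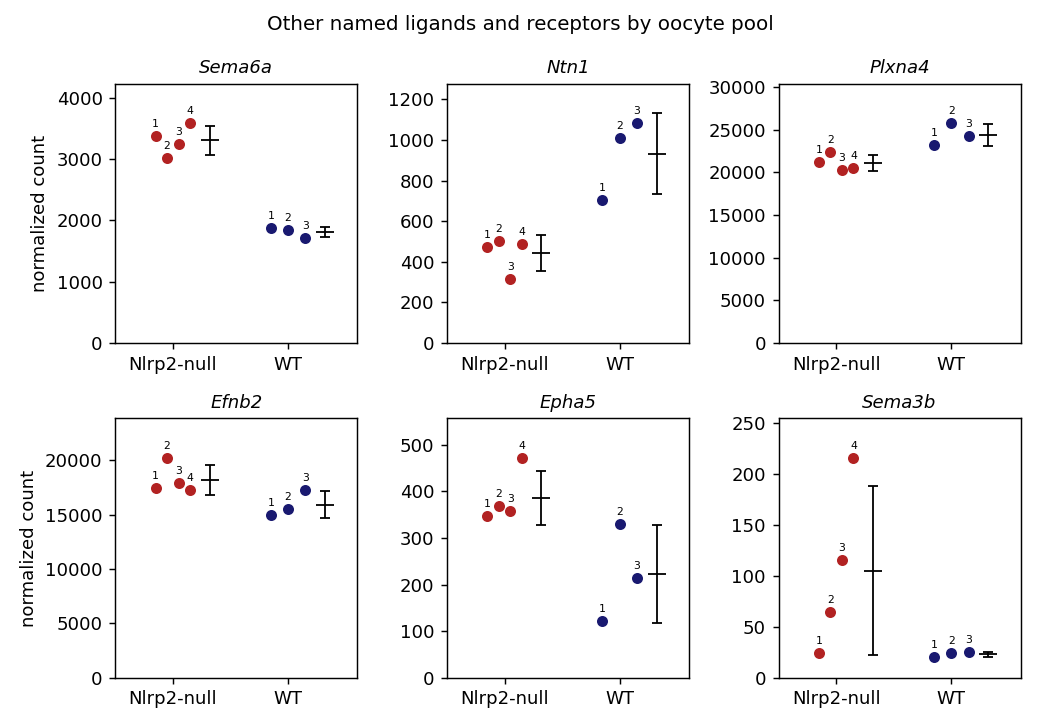
Normalized counts (vertical axes, linear from 0) of Sema6a, Ntn1, Plxna4, Efnb2, Epha5 and Sema3b in each pool, Nlrp2-null left and WT right; numbers are pool numbers and bars are the mean with its SD (n = 4 and 3). Sema6a shows a gap between the groups, the Ntn1 and Plxna4 null points lie below all WT points, and Sema3b is spread among null pools.

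Spread between pools differed widely among the members. The SD within groups was 7.04% of the mean for Robo1 and 7.23% for Sema6a, and between 4.99% and 10.7% for the 5 members with the highest level per kb. It reached 92.0% for Sema3b and 210% for Slit1. An exon of another annotated gene overlaps 18 of the 67 members, in 15 cases from the opposite strand and in 4 from the member's own (1 gene has both), among them Unc5c, Plxna1 and Plxna4 on the opposite strand. The sources used here do not state whether counting used strand. The levels of these 3 genes, and of Unc5a and others overlapped from the opposite strand, may thus include reads of their partners. Plxnc1 and Nrp1 are overlapped by genes on their own strand, and strand cannot separate those reads.

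Genes that work beside or below these receptors gave no call in limma or edgeR. Of 28 tested co-receptors and cofactors 0 passed (3 had an unadjusted p under 0.05, 10.7% beside 10.2% of all genes tested), with a median log2 fold change of 0.15. Sdc1, a heparan sulfate proteoglycan of the cell surface, averaged 27634 ± 2731 normalized counts in null pools and 21861 ± 1038 in WT pools (log2 fold change 0.33 with SE 0.0900; limma adjusted p = 0.213), and DESeq2, which called 1.25% of all genes tested, called it (adjusted p = 0.0322). Cntn1, a lipid-anchored adhesion protein gene, averaged 5466 ± 314 in null pools and 4292 ± 282 in WT pools. Nrcam, an adhesion gene of the L1 family, averaged 1299 ± 300 and 1734 ± 226 in null and WT pools. Flrt2, a ligand of Unc5 receptors, held 6.50, 53.3, 80.4 and 670 in null pools and 49.5, 0.950 and 27.2 in WT pools, with the high value in null 4 alone.

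Of 64 tested signalling effectors 0 passed (6 with an unadjusted p under 0.05, 9.38% beside 10.2% of all genes tested), with a median log2 fold change of 0.00. Dpysl2, a collapsin response mediator that carries semaphorin signals to microtubules, held 279, 271, 501 and 703 normalized counts in null pools and 122, 84.6 and 147 in WT pools. Mical2, an actin-oxidizing enzyme gene, held 209, 308, 361 and 476 in null pools and 115, 99.8 and 100.4 in WT pools. Both genes were above all WT pools in each null pool and highest in null 3 and null 4 (limma adjusted p = 0.135 for Dpysl2 and 0.162 for Mical2), and DESeq2 called both (adjusted p = 0.00256 and 0.00637), beside 1.25% of all genes tested. Mical1, its plexin-binding relative, averaged 142 ± 50.1 in null pools and 37.9 ± 16.5 in WT pools (limma adjusted p = 0.292). Adjusted for the cumulus marker mean, log2 fold changes were 1.34 for Dpysl2, 1.30 for Mical2 and 1.46 for Mical1, beside 1.80, 1.62 and 1.91 without it. Rac1, a small GTPase of the actin skeleton, averaged 30527 ± 2444 in null pools and 35782 ± 1298 in WT pools, with all null pools below all WT pools (log2 fold change -0.23 with SE 0.0830; limma adjusted p = 0.364).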

How the data were processed

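Per the file headers and names, the authors' deposited values are a signal per gene symbol and pool, made by dividing counts by a size factor in DESeq2. All values (100%) were whole multiples of the pool's smallest value within 0.01, so whole reads were recovered. The submitters' processing notes name the aligners STAR 2.5.0a and TopHat2 2.0.9, the counters featureCounts 1.5.0-p1 and HTSeq, and DESeq2 1.22.2, DESeq and HOMER, with GRCm38 and mm10. The sources used here do not say which made this table. A second table, of assembled transcripts, was not used.

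Libraries came from amplification of about 20 ng of total RNA, so intervals cover the spread between pools, and read counts are not independent molecules. limma takes the variance of a gene in part from other genes (10.9 prior and 5 residual degrees of freedom). An interval can thus be narrower or wider than the gene's own pools alone would give. No 2 pools of a group agreed within sampling noise (smallest chi-square per degree of freedom 36.6).

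limma 3.58.1 (R 4.3.3), with a variance trend, compared Nlrp2-null minus WT on log2(normalized count + 1) over 15071 genes with a mean of at least 10. Fold changes are on this log2(value + 1) scale, where the pseudocount shrinks those of low genes and a pool at 0 can enlarge them: that of Epha2 was 3.26, against 1.64 in edgeR. Calls used Benjamini-Hochberg adjusted p values under 0.05 over all genes tested. edgeR 4.0.16 and DESeq2 1.42.0 on recovered reads were alternatives, as were the pseudocount (10), the filter (none, 100), equal medians, covariates (library-number range, cumulus marker mean), a replicate block and leaving out pools. limma in its main form, edgeR and DESeq2 were tested on simulated data. Exon lengths and positions came from GENCODE M21 (GRCm38), for 67 of 67 members.

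Named genes were Robo1, Sema6a, the other Robo and Slit genes, members with an unadjusted p under 0.05, the 12 highest per kb, the 4 smallest p in each pathway list, and Nlrp2. Others were named after their values were seen. The members and lists were chosen with earlier results of these data known.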

Additional observations from a re-analysis of the deposited data

Results flagged for a closer look

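In 4 of the named genes 1 of the 4 null pools stood apart from the other 3, by a gap above Dixon's critical value for 4 samples. For normally distributed values chance alone marks about 1 in 20 such groups, and 34 genes were looked at. The gap was taken on untransformed normalized counts, so that rate may not hold for low or skewed genes such as Slit1 and Flrt2. Slit1 was at 80.4 normalized counts in null 3 (gap 0.847 of the range), the highest of its pools. Epha5 was at 472 in null 4 (0.841), also the highest. Ntn1 was at 314 in null 3 (0.842), the lowest of its pools, and without null 3 its log2 fold change was -0.91, beside -1.07 with it. Flrt2 was at 670 in null 4 (0.889), the pool with the highest cumulus marker mean. With that mean as a covariate its log2 fold change was -0.04, beside 2.29 without it. The part of the marker level in these values was not tested further.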

How the results depend on the processing

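limma called 10 genes, 2 of them members. These are Robo1 and Sema6a, for which the family was picked, so the member counts support nothing about the family. Equal medians left 6 genes and 1 member (Robo1), the replicate block 1 and 0, and leaving out both null 3 and null 4 left 0 and 0. The last fit had fewer samples and did not call Nlrp2 itself. DESeq2 called 188 genes, with 1 of the co-receptors and cofactors and 2 of the effectors, where limma called 0 in each list. Leaving out 1 pool at a time gave 2 to 16 genes and 1 to 2 members, with 0 in both other lists. Robo1 was called in 7 of these 7 fits and Sema6a in 3. In the replicate block null 4 is the only pool with its number, so the genotype difference in that fit does not draw on null 4. Robo1 had a log2 fold change of 0.89 in the block fit and also in the fit without null 4. The cause of these changes in the calls was not tested. Over the 17 alternatives the log2 fold change ran from 0.81 to 0.91 for Robo1, from 0.81 to 0.91 for Sema6a, from 0.36 to 0.83 for Robo2, from -1.69 to -0.92 for Robo3 and from -1.26 to -0.91 for Ntn1. Of the 34 named genes 26 kept their sign in every alternative in which they were fitted. Robo2 without null 3 and null 4 (0.36) and Epha2 with a pseudocount of 10 (1.32) moved by more than the SD between pools. Null and WT pools with the same replicate number also lie in the same range of library numbers. The correlations of their deviations across genes were -0.163, 0.0192 and -0.0121 for numbers 1, 2 and 3. Pairs with different numbers ran from -0.101 to 0.1745, so these values do not decide whether the block belongs in the fit. Low members, such as Slit1, Sema4f and Epha2, are limited by few reads in some pools.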
